A study of Mus musculus with 24 samples.

Results

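The neuronal cytoskeleton and synapse genes are 42 genes whose products build the axon, its transport system and its release sites. They were taken by gene symbol from a list, with the probe set of the highest mean over 24 arrays standing for each gene. All 42 had a probe set and passed the filter on low signal, out of 18193 genes with a probe set and 14879 genes tested. They were measured in the jaws of mouse embryos (strain C57B6) at E12.5, as RMA log2 signal on single-colour arrays, where a difference of 1 is a doubling.

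The arrays fall into 8 groups of 3: control and Tgfbr2 knockout, mandible and maxilla, distal and proximal end. Knockout embryos came from crosses of Wnt1cre;Tgfbr2fl/+ with Tgfbr2fl/fl mice, so that the floxed receptor gene is deleted where Wnt1-Cre is active, in the neural crest and parts of the neural tube. A cleft palate and a calvarial defect are given as traits of the knockout, and the controls were littermates of the knockout embryos. Whether these traits could identify embryos at E12.5 was not checked here. The sources used here do not give the alleles of the controls. Whether the 3 arrays of a group stand for different embryos is not stated, so p-values measure the spread between arrays, which may be technical. Each end is a mixture of mesenchyme, epithelium, muscle, vessels and nerve. In such bulk RNA, more neurons in the piece taken and more RNA per neuron cannot be told apart. Whether the pieces of the 8 groups held equal shares of these tissues was not tested.

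Sensory neurons of the trigeminal ganglion send axons into both jaws, and their cell bodies lie next to the proximal tissue. Neurofilaments and tubulin-binding proteins give these axons their calibre and stability, kinesins carry cargo along them, and growth-cone proteins guide and extend them. SNARE proteins, synaptotagmins and granins make up the release machinery, which neurons begin to produce well before synapses form. Most messenger RNA of a neuron is kept in the cell body, with a smaller share in the axon.

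Array medians lay between 7.26 and 7.38. Tgfbr2 ranged from 11.28 to 12.16 in the control arrays and from 11.30 to 12.68 in the knockout arrays, with a knockout minus control difference of 0.34 (SE 0.11, adjusted p = 0.112, limma) over the 4 regions. Tgfbr2 signal thus did not check the genotype labels, and knockout here means the arrays labelled so. The sources used here do not say where its probes lie relative to the floxed exons. Over all 14879 genes tested, not the members alone, 7 arrays correlated more closely with the other end of their jaw and genotype than with their own group. They were control maxilla distal 1 and 2, control maxilla proximal 1, knockout mandible distal 1 and 2, knockout mandible proximal 1 and knockout maxilla proximal 3. Jaw mesenchyme genes were present at both proximal ends, with mean levels over 14 genes between 11.33 and 12.36 in the 12 proximal arrays. Of the members, 11 fell below the 30th percentile of the array, the limit of the low-signal filter (5.85 to 5.93), in at least 1 of 24 arrays. Nefh did so in 13 arrays, Ppp1r17 in 9, Snap25 in 8 and Ppp1r1c in 7, and differences that start from such low signal are less certain.

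RefSeq promoters (GRCm38.p6) were at hand for 27 of the 42 members. Shown here are the 150 bases before the gene start for 4 of them: Ppp1r1c and Sncg, which had the most significant changes in the proximal maxilla, and Stmn3 and Ina, which differed with jaw end. Capitals mark an E-box, the motif that neurogenic bHLH factors can bind, in either of the forms counted below and on either strand. They lie at chr2:79707630-79707779 (plus strand), chr14:34374670-34374819 (minus strand), chr2:181314501-181314650 (minus strand) and chr19:47014531-47014680 (plus strand), in that order.
Ppp1r1c: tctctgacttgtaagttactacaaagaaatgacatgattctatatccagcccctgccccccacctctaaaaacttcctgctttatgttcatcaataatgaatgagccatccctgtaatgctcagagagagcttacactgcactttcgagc
Sncg: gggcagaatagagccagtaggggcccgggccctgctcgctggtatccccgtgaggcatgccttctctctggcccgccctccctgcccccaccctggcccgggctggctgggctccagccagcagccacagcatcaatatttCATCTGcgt
Stmn3: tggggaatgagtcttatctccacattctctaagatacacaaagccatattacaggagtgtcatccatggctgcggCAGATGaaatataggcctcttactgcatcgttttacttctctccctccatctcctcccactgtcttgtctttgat
Ina: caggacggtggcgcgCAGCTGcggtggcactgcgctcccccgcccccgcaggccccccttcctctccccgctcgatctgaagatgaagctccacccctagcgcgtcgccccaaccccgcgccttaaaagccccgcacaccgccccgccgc
Counted from the start, the E-box began at position -9 in Sncg, -75 in Stmn3 and -135 in Ina, and the stretch of Ppp1r1c held none.

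In the 250 bases before the start, on both strands, CAGATG stood in 7 of the 27 members (25.9%) and in 16.3% of all 27025 genes, counted alike over all starts of a gene (14.4% of all 32851 promoters). CAGCTG stood in 8 members (29.6%) and in 14.7% of all genes (13.0% of all promoters). The 2 parts of the RE1 element, which binds the neuronal repressor REST, were searched separately and together. Its left part, TCAGCAC, was found in 3 members (11.1%) and 4.83% of all genes (4.23% of all promoters). Its right part, GGACAG, was found in 7 members (25.9%) and 21.0% of all genes (18.7% of all promoters). Both parts with 3 bases between them occurred in 0 members and 0.0259% of all genes (0.0213% of all promoters). These matches describe the letters in the window only.

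Across the 8 groups, 40 of the 42 genes had their highest group mean in the proximal maxilla of the knockout. The exceptions were Thy1, an axonal surface glycoprotein, and Sncb, beta-synuclein. The lowest group mean was in the distal mandible of the control for 23 genes and in a knockout mandible group for 14. Averaged over the genes, the deviation from each gene's own mean was 1.93 ± 1.05 (SD, n = 3) in the knockout proximal maxilla. It was 0.28 ± 0.29 in the control proximal mandible, 0.22 ± 0.11 in the control proximal maxilla and -0.73 ± 0.15 in the knockout proximal mandible. The distal groups had -1.07 ± 0.22 (control mandible), 0.02 ± 0.28 (control maxilla), -0.81 ± 0.25 (knockout mandible) and 0.16 ± 0.36 (knockout maxilla).

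**Figure D1:**
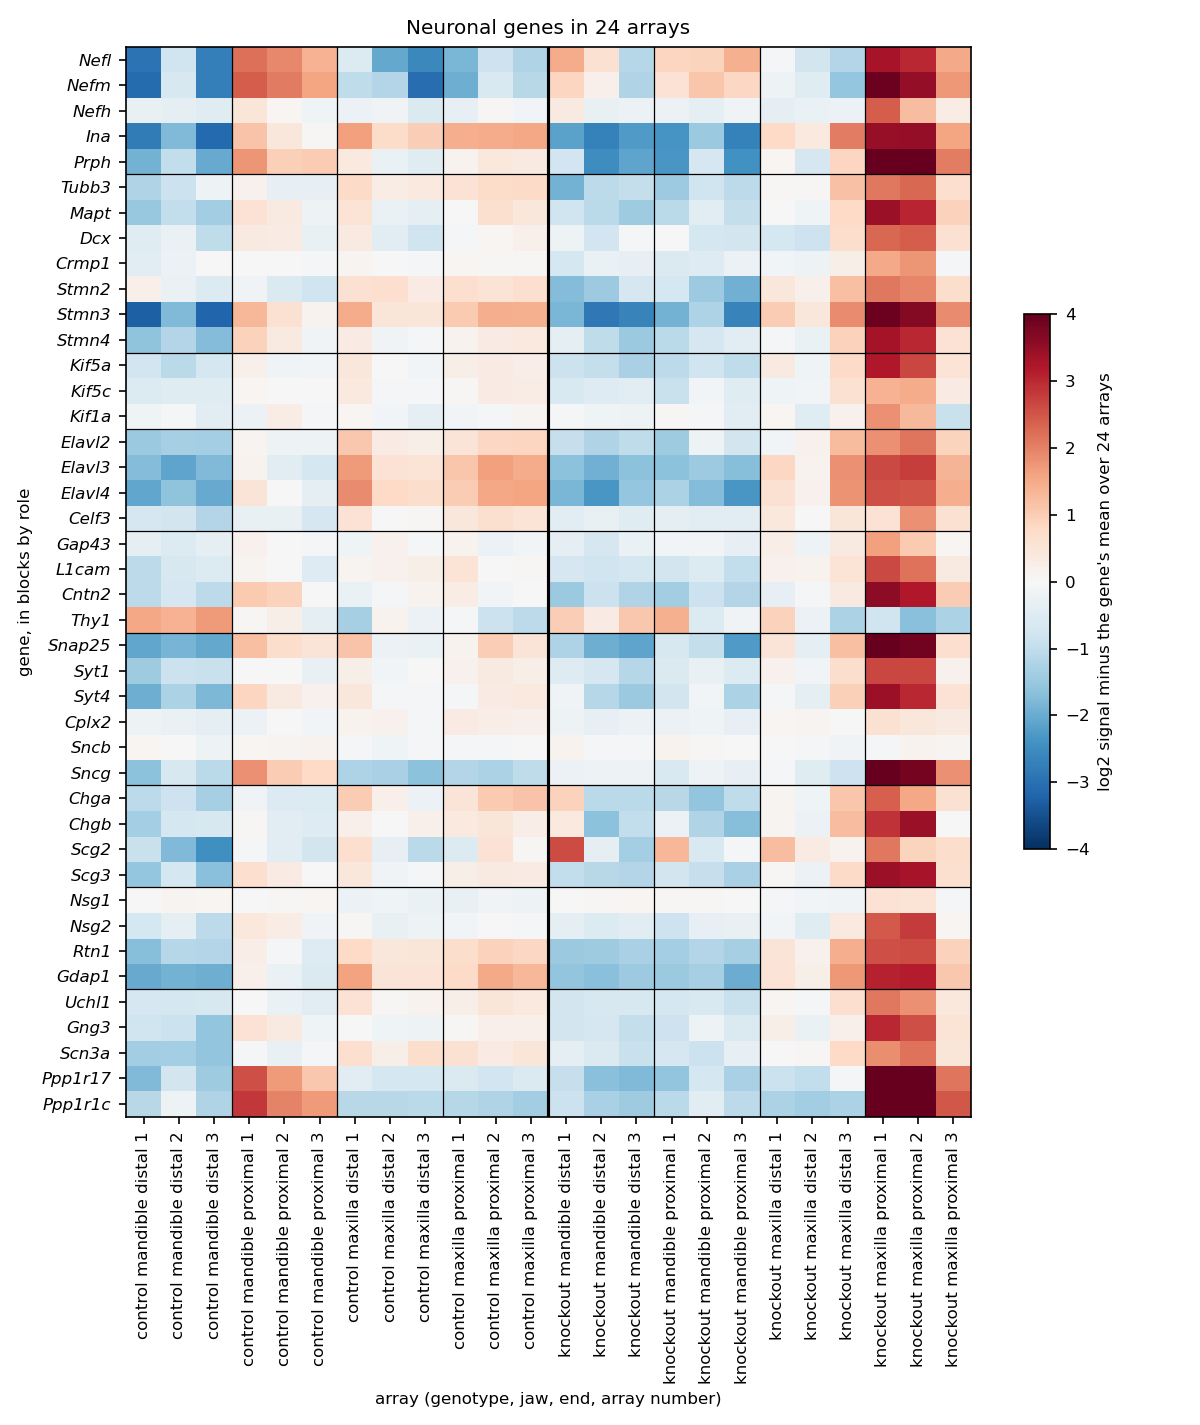
Each gene (vertical axis, in blocks by role) in each of 24 arrays (horizontal axis), as log2 signal minus the gene's mean over 24 arrays, with colours ending at -4 and 4. Knockout maxilla proximal 1 and 2 are red for nearly every gene, with mean deviations of 2.64 and 2.43, while array 3 of that group has 0.73.

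In the proximal maxilla, 4 of 5 intermediate filament genes, 3 of 7 microtubule genes and 4 of 6 vesicle-release genes rose in the knockout, with 1 of 4 granins and 0 of 4 RNA-binding genes. Of the 42 members, 23 rose and 0 fell at an adjusted p under 0.05, against 5.77% of all genes tested called in either direction and 3.25% called higher. The difference was positive for 41 members (49.1% of all genes) with a median of 1.40, while the median over all genes tested was -0.0048. The 3 arrays of the knockout were unequal. Array 1 lay above all 3 controls for 39 members (36.2% of all genes), array 2 for 41 (35.3%) and array 3 for 25 (23.0%), and in all 24 members had all 3 knockout arrays above all 3 controls (10.8% of all genes). Arrays 1 and 2 both exceeded array 3 in 39 of 42 members and in 5214 of all 14879 genes.

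Each SE rests on a spread shared by all 8 groups. The SD of the mean deviation was 1.05 in the knockout proximal maxilla and between 0.11 and 0.36 in the other groups. SEs and p-values for the proximal maxilla may therefore understate the spread of its knockout arrays. The number called in the proximal maxilla rested on which arrays were used. It was 4, 8 and 8 without control array 1, 2 or 3, and 4, 3 and 36 without knockout array 1, 2 or 3. It was 3 without control maxilla 1 and knockout mandible 1 at both ends, 36 with array weights, and 0 when only the 6 arrays of the proximal maxilla were fitted. The share of all genes called under each of these settings is not given here. These counts thus show how steady the calls were, not whether members differed from other genes. Sncg, Ppp1r17 and Ppp1r1c were called whichever single array was left out. With knockout array 3 alone, the median difference over the members was 0.15, and 8 members turned negative, among them Tubb3, Crmp1, Syt1, Chga and Chgb. With that array alone, only Ppp1r1c (3.72, adjusted p = 0.000232, limma) and Sncg (2.98, adjusted p = 0.00131, limma) were called.

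Of the 5 intermediate filament genes, 4 rose in the proximal maxilla: Nefl, Nefm and Nefh, the light, medium and heavy neurofilament subunits, and Prph, peripherin, the filament of peripheral axons. Nefl had 8.64, 9.65 and 9.28 in control arrays 1 to 3 and 13.78, 13.49 and 11.99 in knockout arrays 1 to 3. Nefm had 7.78, 9.13 and 8.63 in the controls and 13.65, 13.25 and 11.47 in the knockout. For both genes the groups did not overlap, and knockout array 3 was the lowest of its group. The differences were 3.90 for Nefl (SE 0.67, adjusted p = 0.00784, limma) and 4.27 for Nefm (SE 0.70, adjusted p = 0.00614, limma). Prph rose by 3.40 and Nefh by 1.44. Ina, alpha-internexin, the filament of young neurons, had 1.35 (SE 0.51), which did not pass (adjusted p = 0.104, limma).

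Of the 7 microtubule genes, Mapt (tau), Dcx (doublecortin, a protein of migrating and extending neurons) and Stmn4, a stathmin that binds tubulin dimers, rose. Mapt had 8.92, 9.58 and 9.40 in the controls and 12.39, 11.996 and 9.87 in the knockout arrays. Stmn2, the growth-cone stathmin SCG10, had 12.14, 12.03 and 12.15 in the controls and 13.58, 13.44 and 12.18 in the knockout. Neither gene overlapped between the groups, and knockout array 3 was the one nearest to the controls. Mapt rose by 2.12 (SE 0.47, adjusted p = 0.0204, limma), Stmn4 by 2.02 and Dcx by 1.72. The other 4 had positive differences between 0.96 for Stmn2 and 1.85 for Stmn3, with Tubb3, the neuronal beta-tubulin, at 0.99 and Crmp1, a semaphorin-signalling protein of growth cones, at 1.02, and did not pass.

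Of the 3 kinesin heavy chains, which move vesicles and neurofilaments along axons, Kif5a rose. Kif5a had 8.44, 8.52 and 8.47 in the controls and 11.38, 10.86 and 8.74 in the knockout, without overlap. Kif5c had 11.26, 11.51 and 11.50 in the controls and 12.60, 12.68 and 11.51 in the knockout, so that knockout array 3 lay within the controls. The differences were 1.85 (SE 0.42, adjusted p = 0.0227, limma) for Kif5a and 0.84 (SE 0.25, adjusted p = 0.056, limma) for Kif5c. Kif1a, the motor of synaptic vesicle precursors, had 0.76.

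None of the 4 RNA-binding genes passed in the proximal maxilla, though all differences were positive. Elavl2, one of the Hu proteins that stabilise neuronal messages, had 10.84, 11.16 and 11.19 in the controls and 12.15, 12.45 and 11.21 in the knockout. The groups did not overlap, with 0.87 between them (SE 0.35, adjusted p = 0.126, limma). Elavl3 had 0.84, Elavl4 0.81 and Celf3, a neuronal splicing factor, 0.46.

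Of the 4 growth-cone and surface genes, Gap43, L1cam and Cntn2 rose. Gap43, the growth-associated protein of extending axons, had 11.07, 10.70 and 10.80 in the controls and 12.55, 11.97 and 11.02 in the knockout. Cntn2 (TAG-1), an adhesion molecule of outgrowing sensory axons, had 8.60, 8.22 and 8.30 in the controls and 11.91, 11.53 and 9.32 in the knockout. Knockout array 3 overlapped the controls for Gap43 and not for Cntn2. The differences were 0.99 for Gap43 (SE 0.25, adjusted p = 0.0307, limma), 1.54 for L1cam, an axonal adhesion molecule, and 2.55 for Cntn2 (SE 0.45, adjusted p = 0.00927, limma). Thy1 was the 1 member with a negative difference, -0.59 (SE 0.52, adjusted p = 0.497, limma).

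Of the 6 vesicle-release genes, Snap25, a SNARE protein, the calcium sensor Syt1, its relative Syt4, and Sncg rose. Sncg, gamma-synuclein, is a protein of peripheral sensory axons. It had 6.79, 6.68 and 6.95 in the controls and 12.79, 11.80 and 9.79 in the knockout. Cplx2, complexin 2, which clamps the release complex, had 10.94, 10.87 and 10.83 in the controls and 11.22, 11.08 and 10.97 in the knockout. Both genes kept the groups apart, at very different sizes. Sncg rose by 4.65 (SE 0.48, adjusted p = 6.51e-05, limma), while Cplx2 differed by 0.21 (SE 0.08, adjusted p = 0.0988, limma). The other 3 that passed rose by 2.47 (Snap25), 2.12 (Syt4) and 1.59 (Syt1), and Sncb had 0.12. Snap25 and Syt1 had knockout array 3 within the range of the controls.

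Of the 4 granin-family genes, whose products fill dense-core granules, Scg3 rose. It had 8.07, 8.20 and 8.17 in the controls and 11.26, 11.15 and 8.50 in the knockout, without overlap. The difference was 2.16 (SE 0.49, adjusted p = 0.0227, limma). Chga had 0.61, Chgb 1.74 and Scg2 1.22, none of which passed.

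Of the 4 membrane-trafficking genes, Nsg1 and Nsg2, neuron-specific endosomal proteins, and Rtn1, a reticulon of the endoplasmic reticulum, rose. Nsg1 had 11.47, 11.63 and 11.56 in the controls and 12.33, 12.31 and 11.73 in the knockout. Nsg2 had 9.81, 9.89 and 9.84 in the controls and 12.37, 12.72 and 9.99 in the knockout. Both groups were apart in all 6 arrays, although knockout array 3 exceeded the highest control only slightly. The differences were 0.57 for Nsg1 (SE 0.10, adjusted p = 0.0117, limma), 1.84 for Nsg2 (SE 0.45, adjusted p = 0.0267, limma) and 1.22 for Rtn1. Gdap1, a mitochondrial protein tied to inherited neuropathy, also had 1.22 but did not pass (adjusted p = 0.105, limma).

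In the last set, 4 of 5 rose: Uchl1 (PGP9.5, a ubiquitin hydrolase), Gng3, a G protein gamma subunit, and Ppp1r17 and Ppp1r1c, both named as regulators of protein phosphatases. Ppp1r1c had 5.92, 5.83 and 5.65 in the controls, at the low-signal limit of the arrays, and 12.45, 12.16 and 9.52 in the knockout. Uchl1 had 11.50, 11.74 and 11.64 in the controls and 13.37, 13.07 and 11.66 in the knockout, with array 3 inside the control range. Ppp1r17 had 6.09, 5.92 and 6.08 in the controls and 11.80, 11.65 and 8.81 in the knockout. Ppp1r17 and Ppp1r1c, each read by its only probe set, thus went from low signal to clear signal in all 3 knockout arrays. Ppp1r1c rose by 5.58 (SE 0.51, adjusted p = 2.25e-05, limma), Ppp1r17 by 4.72 (SE 0.56, adjusted p = 0.000353, limma), Gng3 by 1.91 and Uchl1 by 1.07. Scn3a, an embryonic sodium channel, had 1.05 and did not pass (adjusted p = 0.052, limma).

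**Figure D2:**
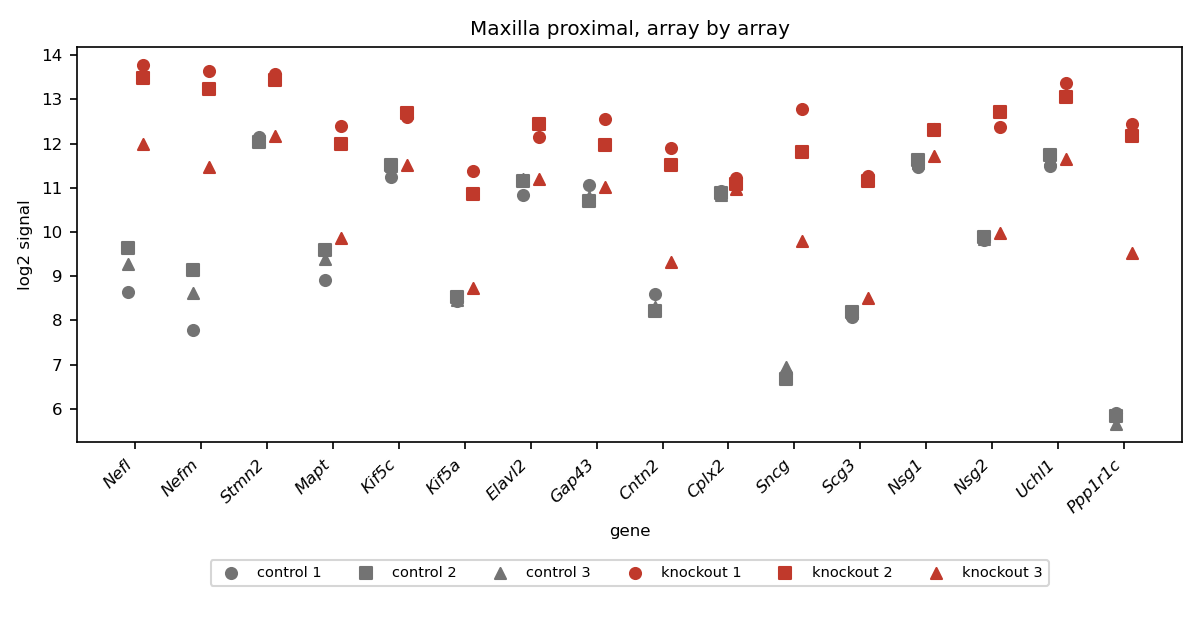
Log2 signal (vertical axis) of 16 genes (horizontal axis) in the 6 arrays of the proximal maxilla, controls in grey and knockout in red, with circles, squares and triangles for arrays 1, 2 and 3. The knockout triangles lie close to the grey points for most genes and farthest from them for Ppp1r1c, at 9.52 against at most 5.92.

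In the proximal mandible the members ran the other way. Only Ppp1r1c was called, and it fell, against 0.0403% of all genes called lower and 0.0538% in either direction. The difference was negative for 39 of 42 members and for 7446 of all 14879 genes, with a median of -0.81 beside -0.000153 over all genes. In 30 members all 3 knockout arrays lay below all 3 controls, against 4.15% of all genes, and 19 had an unadjusted p under 0.05 (2.86% of all genes).

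Ppp1r1c had 9.89, 9.04 and 8.76 in the control arrays of the proximal mandible and 5.98, 6.62 and 6.01 in the knockout arrays. The groups did not overlap, and the knockout values were again near the low-signal limit. It fell by 3.03 (SE 0.51, adjusted p = 0.0214, limma). Ppp1r17 had 9.23, 8.37 and 7.74 against 5.10, 5.96 and 5.36, a difference of -2.98 (adjusted p = 0.0674, limma). Prph had 9.64, 8.85 and 8.90 against 5.55, 7.20 and 5.47, a difference of -3.06 (adjusted p = 0.134, limma). Both also had separate groups but did not pass. Ina had -2.72 (adjusted p = 0.0637, limma), Stmn3 -2.62 (adjusted p = 0.134, limma), Snap25 -2.08, Elavl4 -1.83, Cntn2 -1.79 and Sncg -1.60. The neurofilaments proper had smaller values, with Nefl at -0.78, Nefm at -1.18 and Nefh at -0.37. The 3 members with a positive difference were Scg2 (0.63), Thy1 (0.27) and Celf3 (0.02). In the same contrast the median was 0.10 for 11 skeletal muscle genes, -0.16 for 7 glia genes, -0.03 for 14 mesenchyme genes and 0.87 for 7 epithelium genes, none of them called, and all 7 epithelium genes were positive. Their part in the neuronal differences was not tested.

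The call of Ppp1r1c in the proximal mandible was not steady. With array weights 22 members were called lower, without control maxilla 1 and knockout mandible 1 at both ends 0, and with only the 6 arrays of the region 0. No share of all genes is given for these or the following settings, so the counts describe only how steady the calls were. The number of members called was 0 without any 1 of control arrays 1, 2 or 3 or knockout arrays 1 or 3 of that region, and 3 without knockout array 2. Leaving out an array of another group, which changes the shared estimate of spread, gave 8 without knockout maxilla proximal 3, 4 without knockout maxilla proximal 1, and 2 without control mandible distal 2 or without knockout maxilla distal 3.

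The effect of the knockout on the proximal maxilla was compared with that on the proximal mandible by an interaction contrast. It was higher in the maxilla for 16 of 42 members and lower for 0, against 0.423% of all genes called higher and 0.699% in either direction. The median over the members was 2.36, and 41 were positive (46.7% of all genes). The largest differences were those of Ppp1r1c at 8.61 (SE 0.72, adjusted p = 3.11e-06, limma), Ppp1r17 at 7.70 (SE 0.80, adjusted p = 6.93e-05, limma), Prph at 6.45 (SE 0.89, adjusted p = 0.00199, limma) and Sncg at 6.25 (SE 0.68, adjusted p = 0.000107, limma). These 4 genes and Cntn2 were called whichever single array was left out. Further probe sets of Prph and Cntn2 disagreed in size, as given below.

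Each role held at least 1 of the 16: Nefl, Nefm, Ina and Prph among the filaments, Mapt and Stmn3 among the microtubule genes, Kif5a, Elavl4, Cntn2, Snap25 and Sncg, Scg3, Rtn1, and Gng3, Ppp1r17 and Ppp1r1c. The number called was 7 without control mandible proximal 1, 8 without control mandible proximal 2, and 7, 8 and 8 without control maxilla proximal 1, 2 or 3. It was 10 without knockout mandible distal 2, 8 without knockout mandible proximal 1 or 3, and 7, 5 and 37 without knockout maxilla proximal 1, 2 or 3. It was 37 with array weights, 5 with only the groups compared and 3 without control maxilla 1 and knockout mandible 1 at both ends. These counts, too, have no share of all genes beside them. Without both knockout maxilla proximal 1 and 2 it was 5, with a median of 1.05 over the members.

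**Figure D3:**
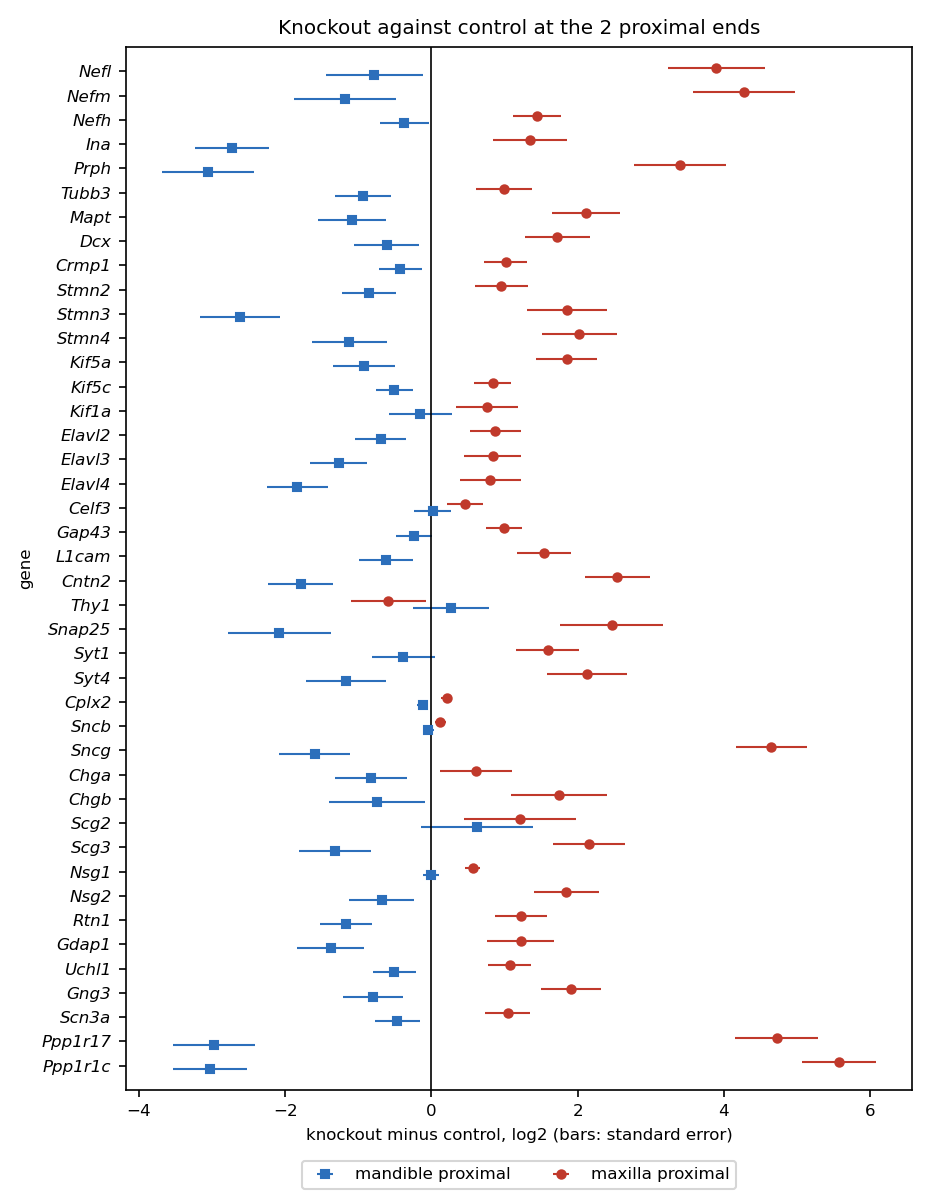
Knockout minus control on the log2 scale (horizontal axis) for the 42 genes (vertical axis) at both proximal ends, with bars of 1 standard error from the fit over 24 arrays. In the maxilla 41 genes lie right of 0 and in the mandible 39 lie left of it.

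At the distal ends no member passed. In the distal mandible 28 of 42 differences were positive (53.7% of all genes) with a median of 0.18, and 0 were called by limma against 0.134% of all genes, while 5 had an unadjusted p under 0.05 (12.6% of all genes). Nefl had 7.51, 9.67 and 7.72 in the controls and 11.95, 11.10 and 9.34 in the knockout, a difference of 2.49 (SE 0.67, adjusted p = 0.136, limma). The groups overlapped, since control array 2 exceeded knockout array 3. In the same contrast all 11 muscle genes were positive with a median of 2.83, their mean level being 8.47 ± 1.77 in the controls and 11.17 ± 0.60 in the knockout (SD, n = 3). All 7 glia genes were positive with a median of 1.16, Erbb3 rose by 1.13, and the list had mean levels of 8.01 ± 0.16 and 9.26 ± 0.43. Their part was not tested. Nefm had 2.10 and Scg2 2.00, the latter with 9.60 in knockout array 1 and 6.63 and 5.65 in the others. In the distal maxilla 30 differences were positive (55.9% of all genes) with a median of 0.07. Limma called 0 members against 0.0202% of all genes, with 0 at an unadjusted p under 0.05 (2.65% of all genes). The muscle median was 1.14 and the glia median 0.50 there. With array weights 4 members were called in the distal mandible, with no share of all genes given for that setting.

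Averaged over the 4 regions, Nefl rose by 1.67 (SE 0.33) and Sncg by 1.22 (SE 0.24), both at an adjusted p of 0.0347 by limma, against 0.47% of all genes called in either direction and 0.282% called higher. No other member passed, and the median was 0.22 with 35 of 42 positive (53.7% of all genes). With genotype and array number as a random block neither passed (adjusted p = 0.221 for both), while the array number as a fixed block kept both calls and gave 4 in all, and array weights gave 11. Both genes had negative differences in the proximal mandible. Without knockout maxilla proximal 1 and 2 the number called was 0 and the median was -0.09. Leaving out 1 array at a time gave between 0 and 21, the latter without knockout maxilla proximal 3, and 20 of the 24 left-out arrays moved the count by over 1.5 times. Shares of all genes under these settings are not given here.

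In the control mandible the members were lower at the distal than at the proximal end. Of 42, 16 were called lower and 0 higher, against 2.34% of all genes lower and 3.45% in either direction, and 39 were negative, 3 positive (44.5% of all genes), with a median of -1.26. The intermediate filaments gave 4 of 5: Nefl (-4.004, adjusted p = 0.00601, limma), Nefm (-4.17), Ina (-3.12) and Prph (-2.88). Nefl had 7.51, 9.67 and 7.72 distally and 12.68, 12.39 and 11.85 proximally, so that the ends did not overlap. Ina had 6.37, 7.40 and 6.06 distally and 10.33, 9.62 and 9.23 proximally. Ppp1r1c had 5.94, 6.83 and 5.86 distally against 9.89, 9.04 and 8.76 proximally. In both genes every distal array was below every proximal one, at -3.12 for Ina and -3.02 for Ppp1r1c.

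The other genes called lower at the distal end of the control mandible were Stmn3 (-3.41), Ppp1r17 (-3.10), Snap25 (-2.80), Sncg (-2.35), Syt4 (-2.14), Elavl4 (-1.96), Stmn4 (-1.89), Gdap1 (-1.73), Elavl3 (-1.54), Scn3a (-1.30) and Elavl2 (-1.29). No kinesin, growth-cone or granin gene passed. Other tissues differed between these ends as well: 6 of 7 glia genes and 4 of 11 muscle genes were called lower distally, with medians of -1.50 and -2.82, and 6 of 7 epithelium genes were positive with a median of 1.18. Their part was not tested. The number called was 6 and 5 without control mandible distal 1 or 3, and 5, 6 and 8 without control mandible proximal 1, 2 or 3. Array weights gave 28, as did a fit of these 6 arrays alone. For none of these settings is the share of all genes given. Nefl, Nefm, Ina, Stmn3 and Ppp1r1c were called whichever single array was left out. In the control maxilla little difference between the ends was found: 37 of 42 were negative and 5 positive (42.4% of all genes), with a median of -0.21. Limma called 0 members and 0.0% of all genes, and 1 member had an unadjusted p under 0.05 (0.692% of all genes). In the control maxilla 3 of the 6 arrays were closer to the other end than to their own, as given above. This limits what a contrast of its ends can show.

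The proximal ends of the 2 control jaws differed in both directions. Nefl, Nefm, Sncg, Ppp1r17 and Ppp1r1c were higher in the mandible, against 7.94% of all genes. Stmn2, Elavl3, Elavl4, Celf3, Cplx2 and Gdap1 were higher in the maxilla, against 6.51% of all genes, and 14.5% of all genes were called in either direction. Thus 11 of 42 were called, 7 without control mandible proximal 3, 23 with array weights and 20 with only these 6 arrays. The share of all genes called under the latter settings is not given here. The median was -0.09. Sncg had 9.81, 8.97 and 8.77 in the mandible and 6.79, 6.68 and 6.95 in the maxilla, while Elavl3 had 9.36, 8.78 and 8.53 in the mandible and 10.33, 10.85 and 10.70 in the maxilla. Neither overlapped between the jaws, in opposite directions. All 11 muscle genes were called higher in the mandible in the same contrast, with a median of 4.09, and 6 of 11 sensory neuron transcription factors were called higher in the maxilla. Their part was not tested.

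Of the genes higher in the control mandible, Ppp1r1c had 3.43 (SE 0.51, adjusted p = 0.000591, limma), Nefm 3.24, Nefl 3.12, Ppp1r17 2.42 and Sncg 2.37 (mandible minus maxilla). Of those higher in the control maxilla, Elavl3 had -1.74 (SE 0.39, adjusted p = 0.00689, limma), Gdap1 -1.43, Elavl4 -1.33, Stmn2 -1.14, Celf3 -0.96 and Cplx2 -0.39. Neither set was tested as a set, since it was chosen by these values.

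In the knockout, 37 of 42 members were lower in the proximal mandible than in the proximal maxilla and 0 were higher, against 7.04% of all genes called lower and 12.7% in either direction. The median was -2.67. In the same contrast 7 of 7 epithelium genes were positive (median 1.40, 2 called higher), as were 11 of 11 muscle genes (median 1.32), while 3 of 7 glia genes were called lower (median -1.004). Their part was not tested. The differences ranged to -5.51 for Prph, -5.28 for Ppp1r17, -5.18 for Ppp1r1c and -5.09 for Stmn3. The 5 not called were Nefl (-1.56), Kif1a (-0.90), Thy1 (1.49), Sncb (-0.01) and Scg2 (-1.03). Between 35 and 39 were called when 1 array was left out, 18 without knockout maxilla proximal 1 and 2, and 2 when only the 6 arrays compared were fitted. Shares of all genes are not given for these settings. This comparison uses the same knockout arrays as those above and gives no independent evidence.

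**Figure D4:**
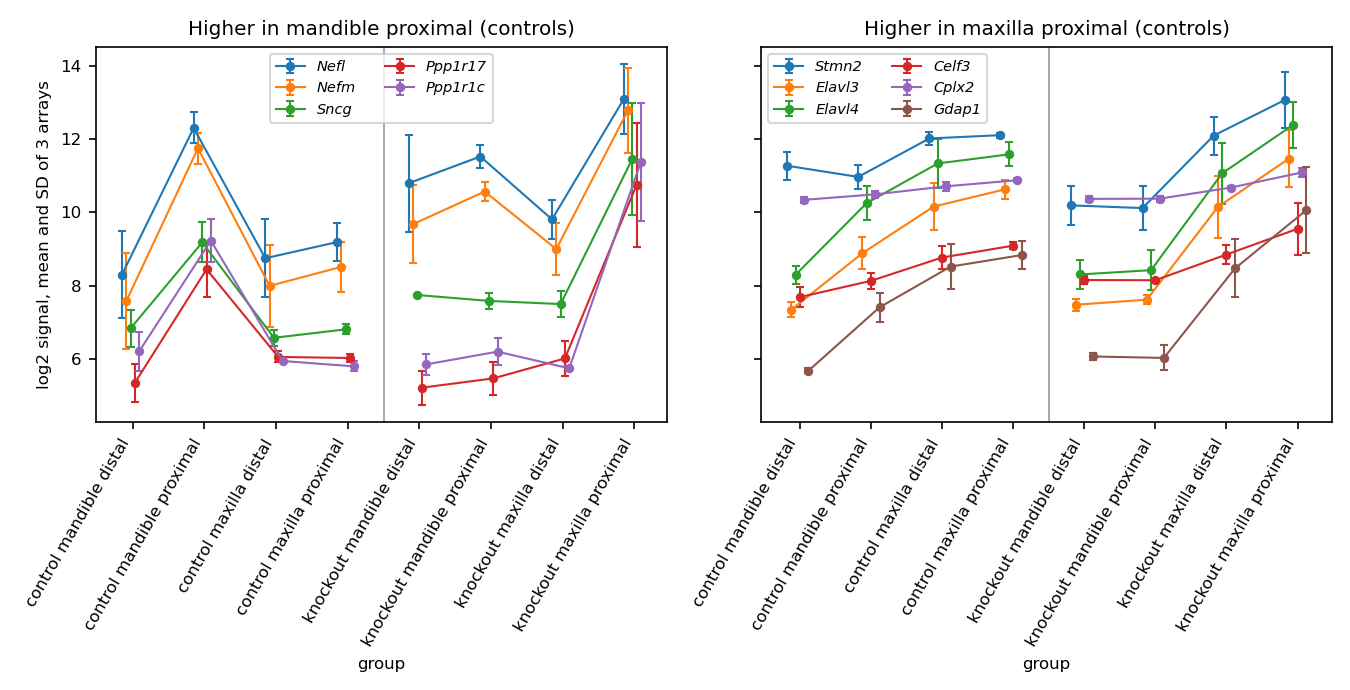
Log2 signal (vertical axis) as mean and SD of 3 arrays in the 8 groups (horizontal axis), for the 5 genes called higher in the control proximal mandible (left) and the 6 called higher in the control proximal maxilla (right). Among the control groups the left genes peak in the proximal mandible, as Sncg at 9.18 ± 0.55. Among the knockout groups they peak in the proximal maxilla, with Sncg at 11.46 ± 1.53. At the proximal ends the right genes are lower in the mandible than in the maxilla in both genotypes.

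Other genes of neurons and of other cell types were counted in the same contrasts. Their values in the proximal maxilla follow, where 3.25% of all genes tested were called higher and 5.77% in either direction. Of 53 other neuron genes tested, 52 were positive, 23 rose and 0 fell, with a median of 0.89. The largest of those called were Rbfox3 (NeuN, 3.43), Rbfox1 (2.30), Scn9a, a sodium channel of sensory neurons (2.18), and Pcsk1n (2.02). Of 11 sensory neuron transcription factors, 3 rose: Pou4f1 (Brn3a) by 5.09 (SE 0.48, adjusted p = 2.25e-05, limma), Isl1 by 2.31 and Tlx3 by 2.22, with a median of 0.48 and 8 positive. In the proximal mandible 3 of these 11 fell (0.0403% of all genes called lower), with -3.98 for Neurod1, -3.59 for Nhlh2 and -3.07 for Pou4f1. Of 6 autonomic genes 3 were tested, and Th rose by 2.69. Phox2a, a defining gene of autonomic neurons, was below the low-signal limit in all 24 arrays.

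Genes of other tissues also moved in the proximal maxilla, where 5.77% of all genes were called in either direction. Of 7 glia and Schwann cell genes, 7 were positive and 5 rose, with a median of 1.44, led by Fabp7 at 3.16, Ednrb at 1.79, Cdh19 at 1.53 and Gfra3 at 1.44. All 11 skeletal muscle genes were positive, each at an unadjusted p under 0.05, with a median of 2.63, of which Myh3, the embryonic myosin, passed at 4.10. Their mean level was 7.30 ± 0.32 (SD, n = 3) in control arrays and lay between 8.72 and 11.40 in knockout arrays. Of 7 epithelium genes 3 fell, with -1.94 for Cldn6, -1.59 for Epcam and -1.58 for Cdh1 and a median of -1.14. Of 10 brain and eye genes 2 fell, with -2.54 for Otx2 and -1.03 for Emx2 and a median of 0.11. Mean epithelium levels were 10.25 ± 0.32 in the controls and between 8.65 and 10.28 in the knockout.

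Of 14 jaw mesenchyme genes 0 passed in the proximal maxilla by limma, with 6 at an unadjusted p under 0.05 and a median of -0.02. The collagens with the highest means had -0.00073 (Col1a2) and -0.03 (Col3a1). Patterning factors, named here after their values were seen, lay farther from 0 in both directions, with 1.83 for Dlx1, 1.41 for Dlx2, -1.49 for Msx1 and -1.15 for Dlx6. Endothelium (5 genes, median 0.18), erythroid (5 genes, median -0.18) and macrophage genes (5 genes, median 0.66) also had 0 called by limma, with 1, 0 and 2 genes at an unadjusted p under 0.05. Of 14 widely expressed relatives of the members, 2 rose (Kif1b by 0.77 and Rtn4 by 0.27) and 1 fell (Elavl1, -0.25), with a median of 0.22. The part of these other tissues in the neuronal differences was not tested.

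**Figure D5:**
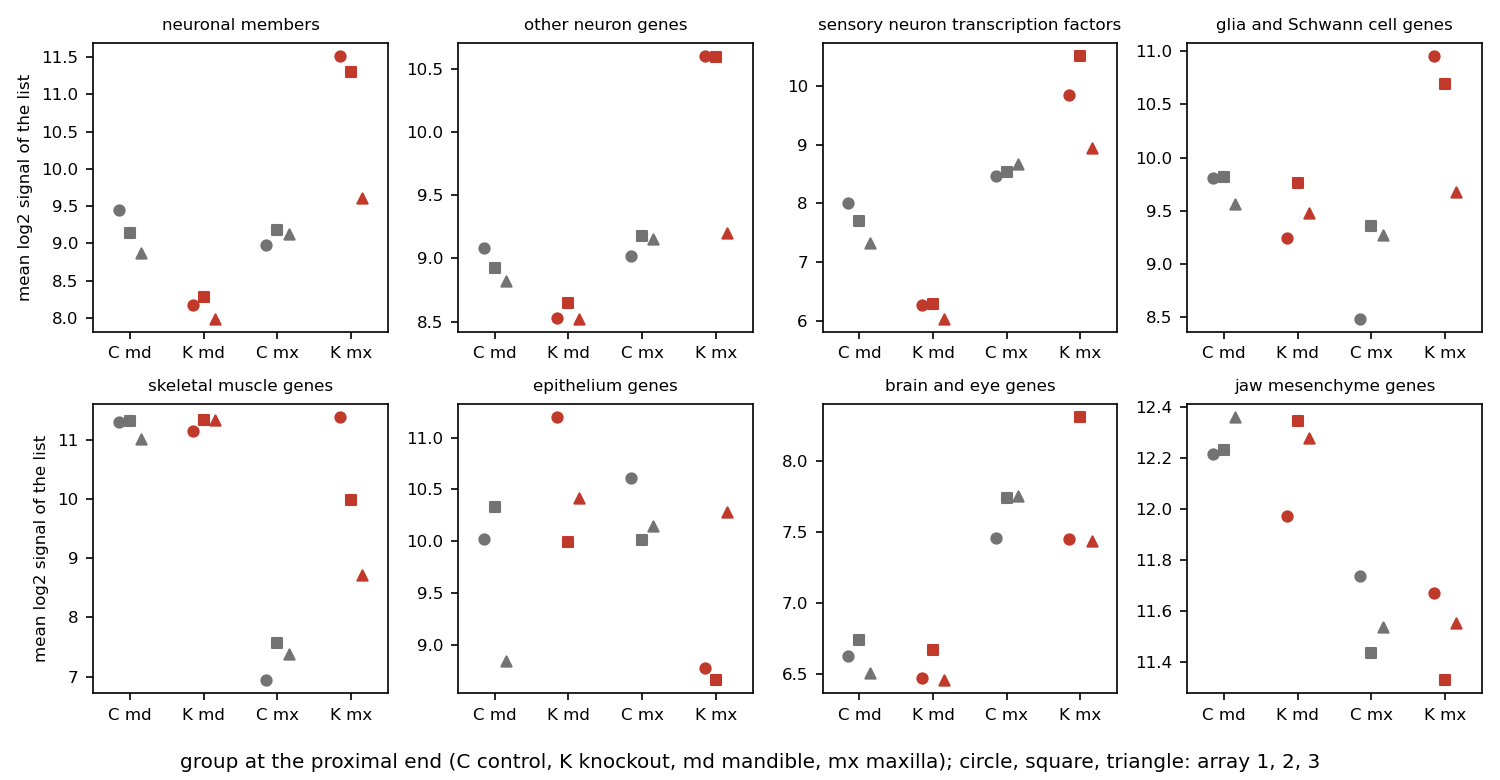
Mean log2 signal of 8 gene lists (vertical axes, each on its own scale) in the 12 arrays of the proximal ends, with controls (C) in grey, knockout (K) in red, mandible (md), maxilla (mx), and circles, squares and triangles for arrays 1, 2 and 3. In the knockout maxilla the members stand at 11.52, 11.30 and 9.61, the glia genes at 10.96, 10.69 and 9.68, and array 3 is the lowest for muscle genes at 8.72.

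The members were also read by further probe sets. The 42 members have 87 probe sets in all, and 23 members have more than 1. Ppp1r17, Ppp1r1c and Sncg have only 1 each, so their large differences had no second reading. None of the 45 further probe sets had the opposite sign in the proximal maxilla. Of these 45, 35 lay above the low-signal limit in at least 3 arrays. Stmn3 was read by a probe set that may cross-hybridise, and its other probe set had 2.20 in place of 1.85. Sizes disagreed at some further probe sets that lay above the limit in all 24 arrays. For Prph they gave 0.48, 0.01 and 0.00 in place of 3.40. In the proximal mandible the same Prph probe sets gave -0.07, -0.06 and -0.01 in place of -3.06. The interaction value of Prph and its difference between the knockout jaws thus rest on the probe set used. For Cntn2 1 gave 0.37 in place of 2.55 while another gave 2.63, for Kif5a 1 gave 0.30 in place of 1.85, and for Nsg1 1 gave 0.05 in place of 0.57. These disagreements were not resolved.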

How the data were processed

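Biotin-labelled cRNA of mouse E12.5 jaw ends was hybridised to 24 single-colour arrays, 3 in each of 8 groups. Per the submitters' processing notes the authors used RMA, and the deposited values are log2 signal. The RMA version and any scan batches are not stated in the sources used here. No further normalisation was applied. Of 45101 probe sets, 34945 had 1 gene symbol, which gave 18193 genes, each read by 1 probe set, that of the highest mean. Genes above the 30th percentile of an array in at least 3 arrays (14879) were tested with limma 3.58.1 in R 4.3.3, in 1 fit of 8 group means (16 residual degrees of freedom), with Benjamini-Hochberg adjustment over all genes tested. "Called" means an adjusted p under 0.05. The fit was tested on simulated data. The number of arrays limits the precision.

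The members and lists were chosen with earlier results of these data known, so a list is described by counts and medians, with no test. Within each role, the member with the highest mean and the one with the largest difference in the proximal maxilla were given array by array, and further members were added after their values were seen. From other lists, up to 4 called genes with the largest change were named, or the 2 with the highest mean. Comparisons against the same control arrays share them. Array numbers 1 to 3 recur in every group. Over all pairs of the same genotype and number, deviations from the group mean correlated with a median r of 0.15 (36 pairs, from -0.65 to 0.54). For the same genotype and another number the median r was -0.11 (72 pairs, from -0.60 to 0.57). A random block of genotype and number had a consensus correlation of 0.158. The main fit did not take the numbers as pairs, but these values do not settle whether arrays of 1 number belong together. Alternatives were other scalings, filters, probe-set rules, variance models, array weights, blocks and left-out arrays.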

Additional observations from a re-analysis of the deposited data

Results flagged for a closer look

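A test of the difference between the effect of the knockout in the proximal maxilla and in the proximal mandible (limma, interaction contrast) set 16 members apart, each with a larger value in the maxilla. The differences on the log2 scale were 4.68 for Nefl, 5.45 for Nefm, 4.08 for Ina and 6.45 for Prph among the intermediate filaments. They were 3.20 for Mapt, 4.47 for Stmn3, 2.77 for Kif5a, 2.64 for Elavl4 and 4.33 for Cntn2. The release and granule genes had 4.55 for Snap25, 6.25 for Sncg and 3.48 for Scg3. Rtn1 had 2.40, Gng3 2.71, Ppp1r17 7.70 and Ppp1r1c 8.61. Adjusted p-values ran from 3.11e-06 for Ppp1r1c to 0.0436 for Elavl4.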

How the results depend on the processing

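Median centring, cyclic loess, both other filters, averaged probe sets and a trended robust prior kept each count of members called within 1.5 times. With array weights the counts were 11 over the 4 regions, 4 in the distal mandible, 22 in the proximal mandible, 36 in the proximal maxilla, 37 for the interaction, 28 between the ends of the control mandible and 23 between the control jaws. Fitting only the groups compared gave 0 in the proximal mandible, 0 in the proximal maxilla, 5 for the interaction, 28 between the control mandible ends, 20 between the control jaws and 2 between the knockout jaws; it could not be run for the mean of 4 regions, which uses all groups. Without control maxilla 1 and knockout mandible 1 at both ends the counts were 0 over the regions, 0 in the proximal mandible, 3 in the proximal maxilla and 3 for the interaction. Without knockout maxilla proximal 1 and 2 they were 0 over the regions, 7 in the proximal mandible, 2 in the proximal maxilla, 5 for the interaction and 18 between the knockout jaws. The array number as a replicate block gave 4 over the regions, and a random block of genotype and number 0; neither moved another count by over 1.5 times. Leaving out 1 array gave 0 to 21 over the regions, 0 to 1 in the distal mandible, 0 to 8 in the proximal mandible, 0 to 0 in the distal maxilla, 3 to 36 in the proximal maxilla, 5 to 37 for the interaction, 5 to 24 between the control mandible ends, 0 to 0 between the control maxilla ends, 7 to 15 between the control jaws and 35 to 39 between the knockout jaws. Without knockout maxilla proximal 1 and 2 the sign turned in the proximal maxilla for Tubb3 (-0.034), Crmp1 (-0.13), Kif1a (-0.88), Elavl3 (-0.047), Syt1 (-0.065), Chga (-0.31), Chgb (-0.35) and Gdap1 (-0.14), and for Nsg1 between the knockout jaws (0.067). The remaining knockout array was then assumed to vary like the other groups. The cause of these shifts was not tested. The counts of members are given without the share of all genes called under the same setting. They thus do not show whether the members shifted more than other genes. With 3 arrays in a group, the number of arrays limits what can be called.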
